A study of Homo sapiens with 8 samples.

Results

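The 33 genes described here encode proteins that copy DNA in S phase: the MCM2-7 helicase, origin recognition and licensing factors, the factors that switch the helicase on, the sliding clamp and its loader, the replicative polymerases with FEN1, cyclin E and E2F, and proteins that restore chromatin or serve histone mRNA. They were chosen by gene symbol and not by a cut on measured values, though with earlier results of these data known. All 33 were represented by 1 probe set each, of 17687 genes with a symbol on the array. Expression was measured on Affymetrix arrays in CCRF-CEM, an established human line of T-cell acute lymphoblastic leukaemia (T-ALL). The 4 untreated samples were held for 1 h in a polymerized gel of 1.7 mg/mL type I collagen, and the 4 treated samples were given 1 µM OICR-9429, a small molecule that blocks the contact of WDR5 with MLL-family methyltransferases, for 1 h before the same 1 h in collagen. The labels describe the control cells as not pretreated and mention no solvent. Each group has replicates numbered 1 to 4 and called biological, all of 1 cell line. Whether the cultures differed in passage or day is not stated, and p-values therefore cover no more than the spread between these samples, which may be technical.

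Cells license origins in G1, when ORC, CDC6 and CDT1 load the MCM2-7 ring onto DNA. In S phase the ring is activated by CDC45, GINS and MCM10, and polymerases held by PCNA copy both strands. Many of these genes are transcribed at the G1/S transition under E2F factors, while CDT1 protein is removed and geminin blocks it once S phase has begun. Dividing leukaemia lines such as CCRF-CEM hold cells in every phase and carry transcripts of the whole set.

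OICR-9429 gave no call in any member, and 29 of 33 passed the test for a difference between replicate numbers. The values are log2 levels per probe set as deposited, and a difference of 1 is a 2-fold change. Calls are at an adjusted p under 0.05, from limma with Benjamini-Hochberg adjustment over all 21448 probe sets. Over all probe sets, 50.3% passed the test over numbers. Of the variance of a member, replicate number held a median of 97.4%, against 81.3% over all probe sets and 92.1% over those above the median level. All 33 members had a mean level above the median of all probe sets. ORC1, POLD1, E2F1 and E2F2 were the 4 members that did not pass over numbers. Without both arrays of number 4, the count over numbers was 12 of 33, against 13.9% of all probe sets in that fit.

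**Figure D1:**
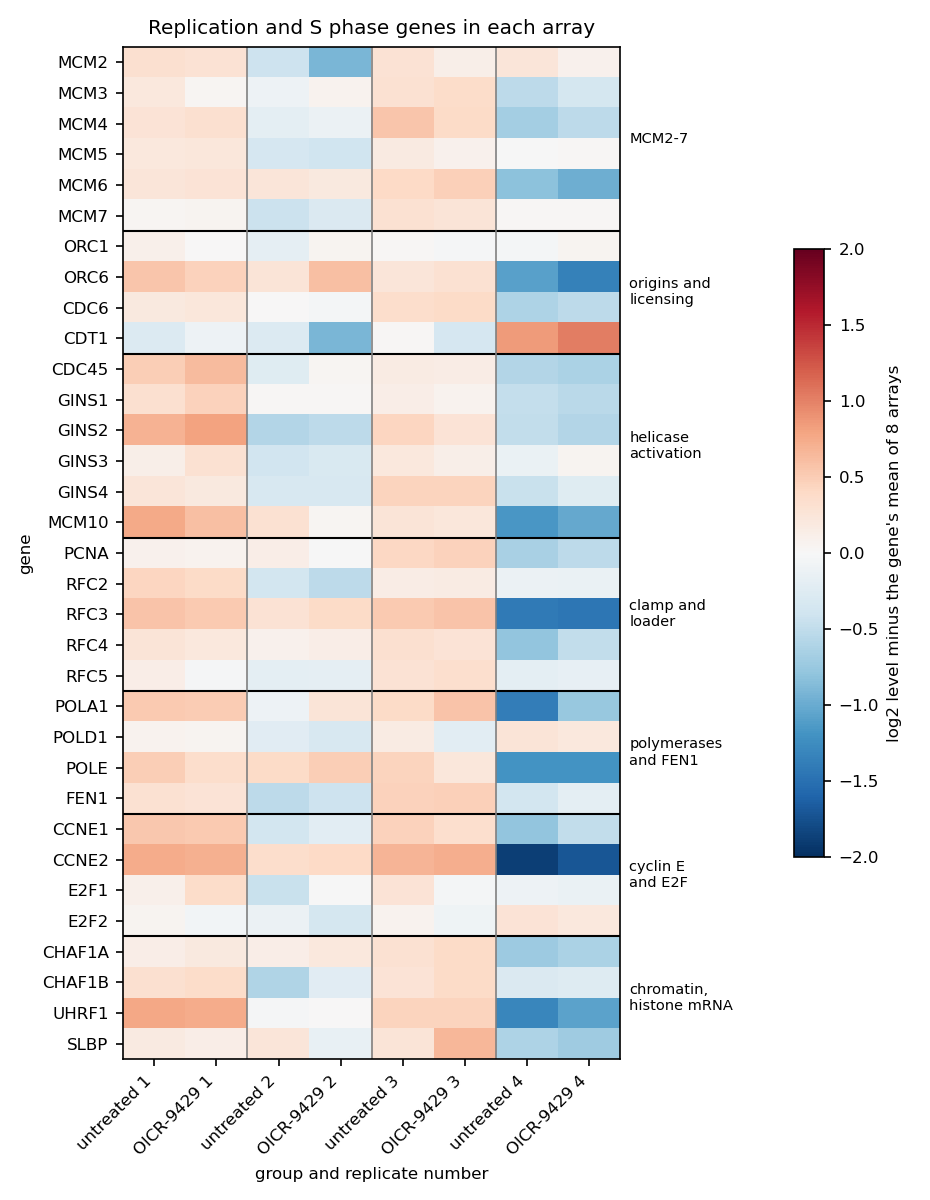
Each row is 1 of the 33 genes, grouped by role, and each column 1 of the 8 arrays, ordered by replicate number with the untreated array left of the treated one. Colour gives the log2 level minus the gene's mean over the 8 arrays, so that CCNE2, RFC3 and POLE are deep blue in both number 4 arrays and CDT1 is red there, while neighbouring untreated and treated arrays look alike.

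The map of levels by array shows that a gene's untreated and treated array of 1 number resembled each other more than arrays of different numbers. Same-numbered arrays pair, so the error in the tests between numbers is the variation of the paired difference, and the spread between separate cultures is not in it. Each number is compared with the mean of the other numbers, and these comparisons share arrays. In bulk RNA, fewer cells of a type or phase and less RNA per cell cannot be told apart.

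Letters of the E2F site recur in the promoters of these genes, and 6 such stretches are shown because their genes moved in different ways across the replicate numbers. In RefSeq's GRCh38.p14 promoter table, 29 of 33 members matched. The 250 bases before the first listed start were searched on both strands for E2F-like letters (TTTGGCGC, TTTCGCGC, TTTCCCGC and TTTGCCGC), which can overlap one another, and for CCAAT, the letters of the NF-Y box. The E2F-like letters lay before 12 of 29 members (41.4%), against 3.71% of 14250 measured genes and 2.79% of all 27305 genes in the table. CCAAT lay before 17 of 29 members (58.6%), against 34.6% of measured genes. The other motif searched, the CHR element (TTTGAA and TTCGAA), lay before 1 of 29 members, against 11.8% of measured genes and 14.6% of all. A match is a description of letters and not of a bound site. Each line gives 60 bases of 5′ to 3′ sequence on the gene's strand, with E2F-like letters in capitals, read on either strand. The stretches are MCM6 (chr2:135876496-135876555, minus strand), RFC3 (chr13:33818068-33818127, plus strand), POLE (chr12:132687343-132687402, minus strand), GINS2 (chr16:85688955-85689014, minus strand), CDT1 (chr16:88803728-88803787, plus strand) and MCM7 (chr7:100101398-100101457, minus strand).
MCM6: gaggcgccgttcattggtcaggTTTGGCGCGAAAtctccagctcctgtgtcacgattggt
RFC3: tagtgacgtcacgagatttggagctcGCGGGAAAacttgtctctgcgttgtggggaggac
POLE: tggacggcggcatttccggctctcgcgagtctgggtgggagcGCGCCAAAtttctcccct
GINS2: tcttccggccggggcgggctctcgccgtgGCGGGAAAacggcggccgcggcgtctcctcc
CDT1: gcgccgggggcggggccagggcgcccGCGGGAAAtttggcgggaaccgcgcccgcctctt
MCM7: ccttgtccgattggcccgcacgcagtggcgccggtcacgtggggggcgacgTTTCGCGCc
MCM6, RFC3 and POLE were lower at number 4 by over 2-fold, GINS2 was lower at numbers 4 and 2, CDT1 was higher at number 4, and MCM7 was lower at number 2 and not called at number 4. The E2F-like letters lay before 8 of the 19 matched members called lower at number 4 and before 4 of the 10 matched members that were not. CCAAT lay before 13 of these 19 and 4 of these 10. Whether either motif went with the call was not tested.

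At number 4, most replication genes were lower than at the other numbers, and CDT1 was higher. Of 33 members, 22 were called lower (66.7%, against 25.5% of all probe sets and 41.6% of those above the median level), and 2 were called higher (CDT1 and E2F2), against 26.3% of all probe sets. The members' median difference was -0.72, against 0.083 over all probe sets. The fall exceeded 2-fold in 8 members, which are CCNE2, RFC3, ORC6, POLE, UHRF1, MCM10, POLA1 and MCM6. Over all probe sets, the number 4 difference correlated with the mean level at -0.232, so that brighter probe sets tended to be lower there, while within the 33 members that correlation was 0.051. With cyclic loess between arrays, which removes trends with level, 20 members were lower and 3 higher, and the median was -0.47, more than 1.5 times smaller. Leaving out 1 array, or both arrays of another number, left 20 to 25 members called, with 19 to 24 of them lower.

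The 6 subunits of the MCM2-7 ring did not move together at number 4. MCM3, MCM4 and MCM6 were called lower, while MCM2, MCM5 and MCM7 were not called. MCM6 read 9.87, 9.87, 10.03 and 8.81 in untreated cells of numbers 1 to 4 and 9.90, 9.83, 10.11 and 8.65 after OICR-9429. Both number 4 arrays lay below all others, by 1.21 ± 0.11 (SE) on the log2 scale, or 2.31-fold (adjusted p = 0.000104). MCM4 was lower by 1.75-fold (adjusted p = 0.000749) and MCM3 by 1.5-fold (adjusted p = 0.00427). MCM7 read 11.27, 10.80, 11.53 and 11.26 in untreated cells and 11.29, 10.94, 11.48 and 11.26 after OICR-9429. Its lowest arrays were those of number 2, and the number 4 arrays lay among the others (difference 0.04 ± 0.11). MCM5 likewise was lowest at number 2, with a number 4 difference of 0.01 ± 0.11. MCM2 differed by 0.22 ± 0.13 and was not called, but with cyclic loess it was called higher at number 4, at 0.49 (adjusted p = 0.0168).

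The licensing factors split in direction. ORC6, the smallest subunit of the origin recognition complex, read 8.42, 8.11, 8.10 and 6.78 in untreated cells and 8.32, 8.46, 8.17 and 6.51 after OICR-9429. Both number 4 arrays were the lowest, by 3.07-fold (adjusted p = 8.2e-05). CDC6, the ATPase that helps load the ring, was lower by 1.69-fold (adjusted p = 0.000728). CDT1, the loading partner of CDC6, read 8.30, 8.30, 8.60 and 9.43 in untreated cells and 8.47, 7.66, 8.23 and 9.60 after OICR-9429. Its number 4 arrays were the highest, by 1.26 ± 0.18 or 2.39-fold (adjusted p = 0.00069), and CDT1 was the only member more than 2-fold higher there. ORC1, the ATPase subunit of the origin complex, spanned 0.125 over the number means, the narrowest range of the 33 members, and passed no test between numbers.

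The genes for helicase activation were lower at number 4 in 5 of 6 members. MCM10, a factor that helps the activated helicase unwind, read 8.29, 7.84, 7.79 and 6.37 in untreated cells and 8.14, 7.57, 7.77 and 6.52 after OICR-9429. Both number 4 arrays lay more than 1 log2 unit below every other array, and the difference from the other numbers was 2.74-fold (adjusted p = 7.36e-05). CDC45 was lower by 1.76-fold, GINS2 by 1.65-fold, GINS1 by 1.60-fold and GINS4 by 1.38-fold. GINS3 was not called (difference -0.05 ± 0.12). The call of GINS4 was lost without the untreated array of number 4 (-0.36, adjusted p = 0.104) and without both arrays of number 3 (-0.30, adjusted p = 0.112).

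In the sliding clamp group, PCNA, RFC3 and RFC4 were lower at number 4, and RFC2 and RFC5 were not called. RFC3, a subunit of the loader that places PCNA on DNA, read 10.48, 10.20, 10.43 and 8.49 in untreated cells and 10.42, 10.28, 10.47 and 8.46 after OICR-9429. Its 6 arrays of the other numbers lay within 0.28 of each other, and both number 4 arrays lay far below them, by 3.75-fold (adjusted p = 3.52e-05). PCNA was lower by 1.71-fold and RFC4 by 1.81-fold (adjusted p = 0.000799 and 0.000666). RFC2 differed by -0.16 ± 0.11 and RFC5 by -0.23 ± 0.11, so the loader subunits differed among themselves by up to 1.74 on the log2 scale.

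The catalytic polymerase subunits did not move together. POLE, the leading-strand polymerase, read 8.83, 8.73, 8.78 and 7.14 in untreated cells and 8.70, 8.84, 8.57 and 7.14 after OICR-9429. Both number 4 arrays read the same and lay below all others, by 3.03-fold (adjusted p = 4.61e-05). POLA1, which extends primers made by primase, read 8.99, 8.37, 8.85 and 7.09 in untreated cells and 8.98, 8.73, 9.04 and 7.72 after OICR-9429. It was lower at number 4 by 2.68-fold (adjusted p = 0.000143). POLD1, the lagging-strand polymerase, differed by 0.31 ± 0.12 and did not pass the test, with an adjusted p of 0.0628. FEN1, the nuclease that trims Okazaki fragments, was lower by 1.30-fold (adjusted p = 0.0216), but that call was lost with cyclic loess (-0.13, adjusted p = 0.366) and in 6 of the 11 fits that leave out 1 array or 1 other number.

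Cyclin E2 had the widest range of the 33 genes. CCNE2, which drives CDK2 at the start of S phase, read 9.52, 9.13, 9.46 and 6.90 in untreated cells and 9.49, 9.18, 9.51 and 7.07 after OICR-9429. Both number 4 arrays lay more than 2 log2 units below every other array, with a difference of -2.40 ± 0.11 or 5.27-fold (adjusted p = 2.49e-05). CCNE1, its close relative, was lower by 1.8-fold (adjusted p = 0.000841). The activator E2F1 was not called (-0.16 ± 0.16). E2F2 was called higher by 0.32 ± 0.11 (adjusted p = 0.0385), a call lost without any 1 of 7 arrays (the untreated array of number 2 excepted) and without both arrays of number 2 or of number 3.

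All 4 genes that restore chromatin or serve histone mRNA were called lower at number 4. UHRF1, which brings DNA methylation to copied DNA, read 10.69, 9.90, 10.36 and 8.62 in untreated cells and 10.66, 9.93, 10.36 and 8.85 after OICR-9429. Its number 4 arrays were the lowest, by 2.99-fold (adjusted p = 4.45e-05), and its number 1 arrays the highest. CHAF1A, the large subunit of the CAF-1 chaperone that places histones behind the fork, was lower by 1.87-fold, and SLBP, which binds the stem-loop of histone mRNA, by 1.86-fold (adjusted p = 0.000281 and 0.00202). CHAF1B, the partner of CHAF1A, was lower by 1.28-fold (adjusted p = 0.0349), and its call was lost with cyclic loess (-0.09, adjusted p = 0.568) and in 9 of the 11 fits that leave out 1 array or 1 other number.

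**Figure D2:**
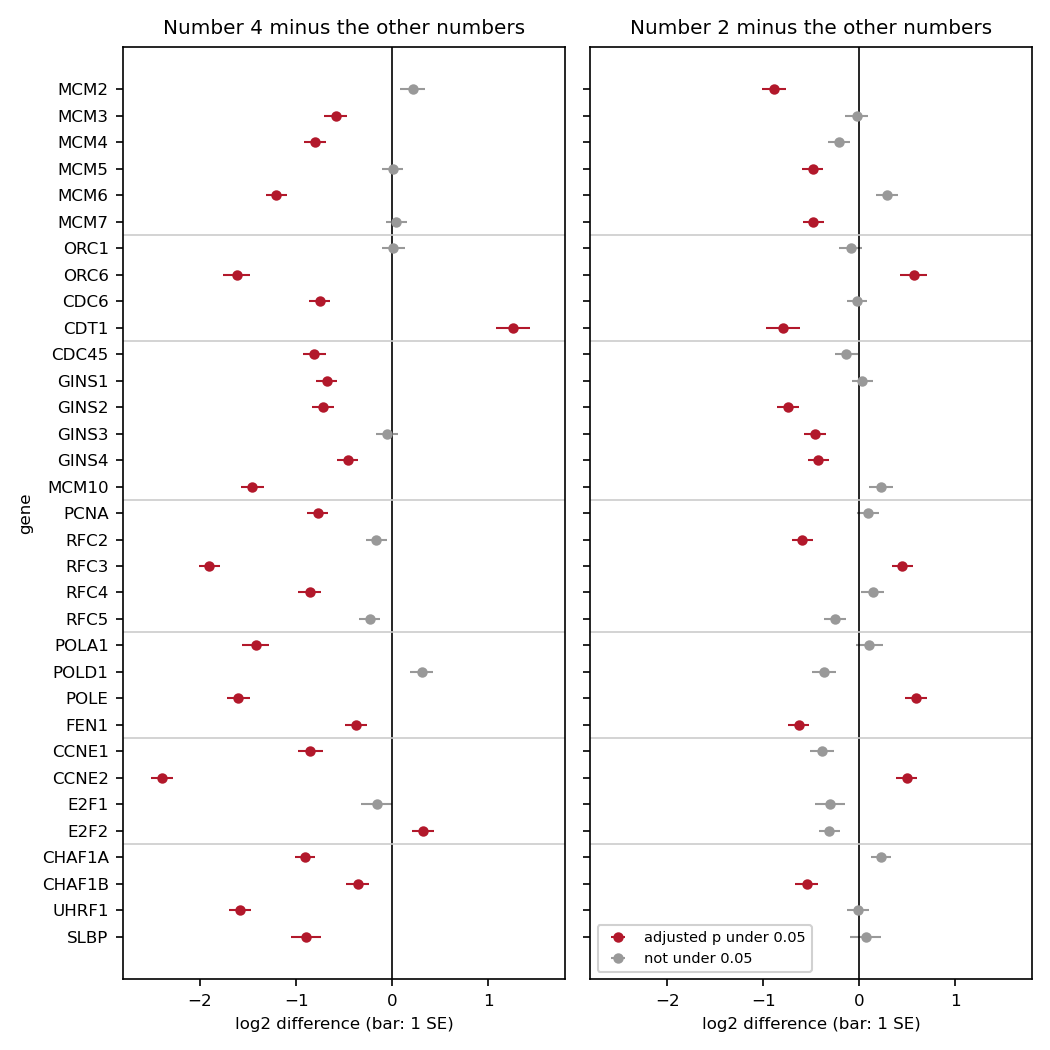
For each of the 33 genes, points give the log2 difference of number 4 (left) and of number 2 (right) from the mean of the other numbers, with bars of 1 SE and red points for adjusted p under 0.05. The left panel holds 22 red points below 0 and 2 above, and the right panel 10 below and 4 above.

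At number 2, MCM2, GINS2 and CDT1 led the members that were lower, as the plot of both contrasts shows. Of 33 members, 10 were called lower (11.6% of all probe sets) and 4 higher (15.4% of all probe sets). MCM2, MCM5 and MCM7, the ring subunits not called at number 4, were all called lower at number 2. MCM2 read 9.70, 8.97, 9.66 and 9.62 in untreated cells and 9.67, 8.46, 9.49 and 9.46 after OICR-9429. Both number 2 arrays were the lowest in their group, by 0.89 ± 0.13 or 1.85-fold (adjusted p = 0.00261). CDT1 (1.73-fold), GINS2 (1.67-fold), FEN1 (1.55-fold), RFC2 (1.51-fold), CHAF1B (1.46-fold), GINS3 (1.37-fold) and GINS4 (1.34-fold) were also called lower. For CDT1, the mean of the other numbers includes its high number 4. Without both arrays of number 4, CDT1 was lower at number 2 by 0.42 ± 0.17 and not called (adjusted p = 0.149). GINS2 read 9.32, 8.04, 9.05 and 8.13 in untreated cells and 9.44, 8.10, 8.90 and 8.04 after OICR-9429, so that number 2 and number 4 were both low and numbers 1 and 3 both high.

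The 4 members called higher at number 2 were ORC6, RFC3, POLE and CCNE2, each of which was lower at number 4 by more than 3-fold, and number 4 is part of the mean they were set against. Without both arrays of number 4, none of the 33 was called higher at number 2 and 13 were called lower (7.2% and 7.86% of all probe sets). The difference of RFC3 then turned from 0.45 to -0.21 and that of CCNE2 from 0.50 to -0.34. In that fit, 31 of 33 members lay below 0 with a median of -0.37, against 0.028 over all probe sets, and GINS2 was lower by 1.11 ± 0.13 (adjusted p = 0.00434). On all 8 arrays, the members' median difference at number 2 was -0.13. It was -0.07 without the untreated array of number 2 and -0.24 without the treated one. Over all probe sets, these 3 medians were -0.01, -0.01 and 0.003. With 1 array left at number 2, calls were lost in the members and over all probe sets. The lost calls therefore cannot tell whether the members depended more on these arrays than other probe sets.

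At numbers 1 and 3 the members were mostly above the other numbers. At number 1, 13 members were called higher and 0 lower (10.6% and 6.14% of all probe sets), and at number 3, 4 were called higher and 0 lower (1.18% and 0.2% of all probe sets). UHRF1 (1.01 ± 0.11), GINS2 (1.00 ± 0.12), CCNE2 (0.96 ± 0.11) and MCM10 (0.91 ± 0.12) differed most at number 1, and the 4 called at number 3 were CCNE2 (0.94 ± 0.11), RFC3 (0.73 ± 0.11), MCM4 (0.63 ± 0.12) and FEN1 (0.62 ± 0.11). These contrasts include the low number 4 in their reference. Without both arrays of number 4, 5 members were called higher at number 1 (5.85% of all probe sets) and 0 at number 3 (0.681%). The members' median difference at number 1 was 0.37 without its untreated array and 0.35 without its treated one, against 0.335 on all 8 arrays. At number 3 these medians were 0.39 and 0.45, against 0.44. With 1 array left at the number tested, calls were lost in the members and over all probe sets.

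In every role, the mean over members was highest at number 1 or 3 and lowest at number 4. The MCM2-7 mean was 10.36, 9.93, 10.46 and 9.86 for numbers 1 to 4, so numbers 2 and 4 were close. The mean of the helicase activation genes was 9.24, 8.59, 9.02 and 8.25, and that of the clamp and its loader 10.72, 10.43, 10.80 and 9.86. Licensing genes had means of 9.16, 8.95, 9.14 and 8.81, the polymerases with FEN1 8.83, 8.45, 8.82 and 7.93, cyclin E with E2F 8.65, 8.18, 8.58 and 7.70, and the chromatin and histone mRNA genes 9.79, 9.39, 9.83 and 8.73. The order was 3, 1, 2, 4 for the ring, the clamp group and the chromatin group and 1, 3, 2, 4 for the other 4 groups. These means hide the split inside the ring and among the licensing factors.

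Gene by gene, number 4 was the lowest in 19 members and number 2 in 14, and no member was lowest at number 1 or 3. Over all probe sets, number 4 was lowest in 33.3%, number 2 in 24.4%, number 1 in 26.3% and number 3 in 15%. In both treatment groups separately, number 4 was lowest in 18 members (25.9% of all probe sets) and number 2 in 9 (13.1%). The order 3, 1, 2, 4 held in 8 members and the orders 1, 3, 2, 4 and 1, 3, 4, 2 in 7 each, while RFC3 had equal means at numbers 1 and 3, above 2 and then 4. Neighbours in a member's order seldom differed at the top. The highest and the next number differed in 1 of 33 members (CDT1) and the middle numbers in 5. The lowest and the next above it differed in 20. These neighbour counts were not made over all probe sets, so they cannot show whether the pattern is particular to the members. Between number 1 and number 3 no member was called (1.79% of all probe sets). Number 4 had 23 members lower and 1 higher against number 1 (23.2% and 21.3% of all probe sets) and likewise 23 and 1 against number 3 (21.7% and 18%). Number 2 had 11 members lower than number 1 (8.43% of all probe sets), and 9 were higher at number 3 than at number 2 (2.42%). Number 4 against number 2 gave 17 members lower (24.2% of all probe sets) and 6 higher (23.6%), and the 6 higher were MCM2, MCM5, MCM7, CDT1, POLD1 and E2F2.

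None of the 33 genes differed between OICR-9429 and untreated cells beyond the spread of the replicates. With limma, 0 of 33 members were called, as were 0% of all probe sets, and 0 members had an unadjusted p under 0.05, against 0.49% of all probe sets. With the replicate number as a block, again 0 members and 0% of all probe sets were called. At an unadjusted limma p under 0.05 that fit held 1 member (POLA1), or 3.03%, against 5.55% of all probe sets. The members' median difference was 0.02, against 0.005 over all probe sets. Of the 33, 21 lay above 0 and 12 below (51.1% and 48.3% of all probe sets), and 27 were smaller than 0.1 in size. In every member the treated and untreated values overlapped, while 0.737% of all probe sets did not overlap.

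**Figure D3:**
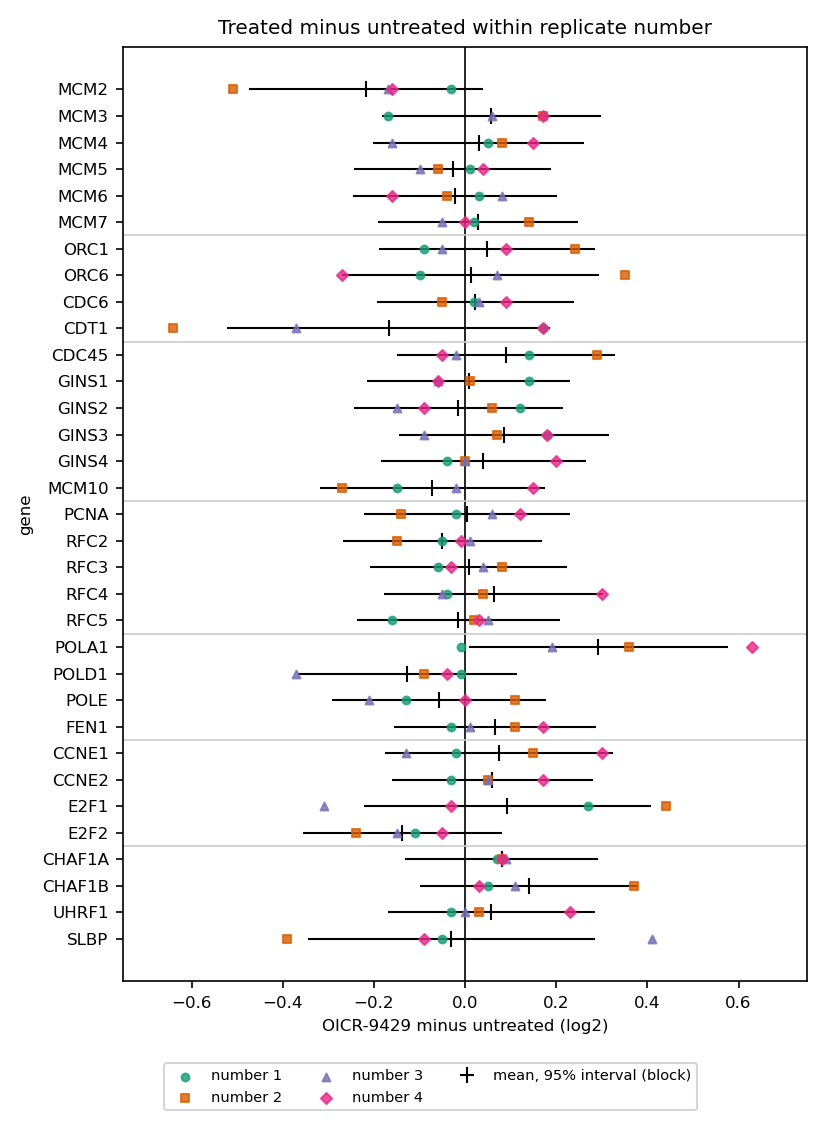
For each of the 33 genes, symbols give the treated-minus-untreated log2 difference within each of the 4 replicate numbers, and the tick and line give the mean and its 95% interval from the fit with the replicate block. Only the POLA1 interval lies clear of 0, and the widest scatter is seen in CDT1, SLBP, POLA1 and E2F1.

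Within replicate numbers, differences were small and of mixed sign, as the plot of paired differences shows. POLA1 differed by -0.01, 0.36, 0.19 and 0.63 in numbers 1 to 4, a mean of 0.29 with a 95% interval of 0.01 to 0.58 in the blocked fit. Its adjusted p was 0.841 with the block and 1 without it. MCM2 differed by -0.03, -0.51, -0.17 and -0.16, a mean of -0.22 with an interval of -0.47 to 0.04. Each of these means rested largely on 1 pair, number 4 for POLA1 and number 2 for MCM2. CDT1 differed by 0.17, -0.64, -0.37 and 0.17, so that its sign was split between the pairs. E2F1 (0.27, 0.44, -0.31 and -0.03) and SLBP (-0.05, -0.39, 0.41 and -0.09) were split in the same manner.

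The same sign in all 4 pairs was seen in 5 of 33 members (15.2%), against 12.6% of all probe sets. CHAF1A (mean 0.08) and CHAF1B (0.14), the 2 large subunits of CAF-1, were above 0 in every pair, and MCM2, POLD1 (-0.13) and E2F2 (-0.14) were below. CHAF1A differed by 0.07, 0.08, 0.09 and 0.08 in numbers 1 to 4, the narrowest scatter of these 5, and its adjusted p with the block was 0.902. By role, the mean treated-minus-untreated difference ran from -0.03 in the MCM2-7 ring to 0.06 in the chromatin and histone mRNA genes.

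The 95% interval of the blocked difference lay within a 1.5-fold change for 33 of 33 members. Without the block, which leaves the number differences in the error, it lay within 1.5-fold for 10 and within 2-fold for 25. The median SE of a member was 0.28 without the block and 0.10 with it. A p that misses the threshold does not show that treated and untreated cells were alike.

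Beyond the 33 genes, 61 other replication genes were read from a list of the pathway, of 63 listed. At number 4, 47 were lower (77%, against 25.5% of all probe sets) and 3 higher (4.92%, against 26.3%). The median was -0.80, and with cyclic loess 41 were lower and 8 higher. CLSPN, the claspin adaptor of the checkpoint kinase ATR, differed by -2.45 ± 0.12, HELLS, a chromatin remodeler, by -2.76 ± 0.13, and ATAD5, which unloads PCNA, by -2.51 ± 0.15. The 3 higher were the polymerase delta subunits POLD4 (1.34 ± 0.13) and POLD2 (0.58 ± 0.14) and thymidine kinase TK1 (0.92 ± 0.11). POLD2 read 9.96, 8.86, 9.79 and 9.94 in untreated cells of numbers 1 to 4 and 10.01, 8.41, 9.67 and 10.11 after OICR-9429. Its number 4 arrays were thus close to those of number 1, and the mean they were set against includes the low number 2. For OICR-9429 none of the 61 was called, and the extremes were ATR (0.29, SE 0.74) and RECQL4 (-0.24, SE 0.33). At number 2, 22 of these genes were higher (36.1%, against 15.4% of all probe sets) and 14 lower (23%, against 11.6%), with a median of 0.23. Without both arrays of number 4 the counts were 2 and 11 (7.2% and 7.86% of all probe sets) and the median -0.07.

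Replication-dependent histone genes, which are transcribed in S phase, were mostly higher at number 4, opposite to most of the 33 genes. Of 50 replication-dependent histone genes measured, of 56 listed, 48 were called higher there and 0 lower, against 26.3% and 25.5% of all probe sets. The median was 0.73 (0.97 with cyclic loess). At number 2, 35 were lower (70%, against 11.6% of all probe sets). Without both arrays of number 4, 12 were lower at number 2, against 7.86% of all probe sets. Number 4 against number 1 alone gave 29 of 50 higher and 0 lower (21.3% and 23.2% of all probe sets). Against number 2 alone 45 were higher (23.6% of all probe sets), and against number 3 alone 42 (18%). H2BC14 had a number 2 difference of -2.79 and a number 4 difference of 1.19, but was highest at number 1, with a difference of 1.56. H2BC17 had a number 4 difference of 1.74. Histone genes are near-identical copies of each other, so a probe set may read several of them. SLBP and the histone genes moved in opposite directions at number 4. Of 30 mitotic genes, 12 were higher (40%) and 13 lower (43.3%) at number 4, with a median of -0.12, which turned to 0.13 with cyclic loess. Over all probe sets the shares were 26.3% and 25.5%, and over those above the median level 26.3% and 41.6%. CENPE (-2.02) and CENPF (-2.25), proteins of the kinetochore, were among those lower.

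**Figure D4:**
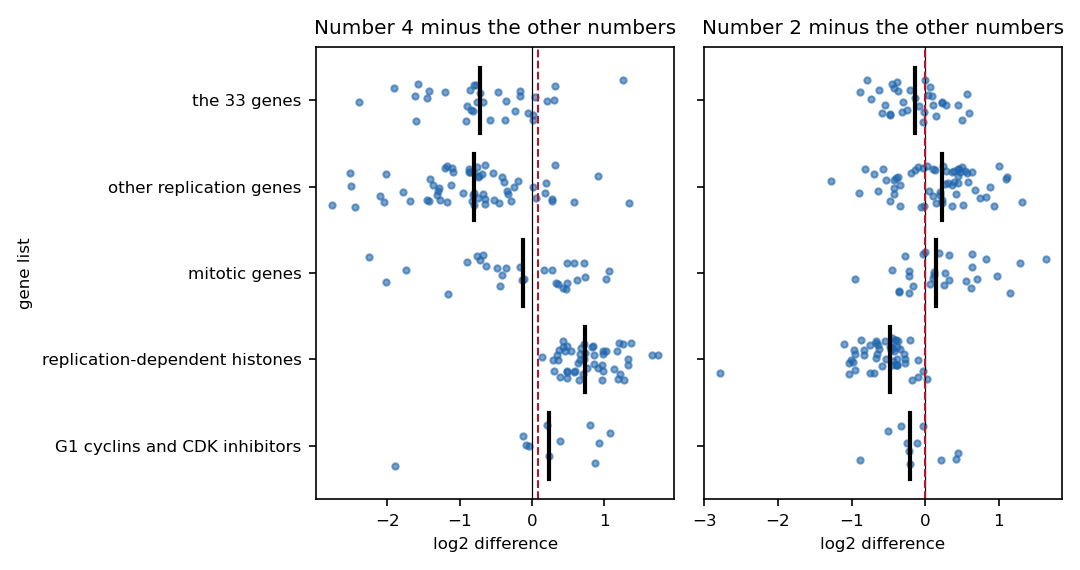
Each point is a gene, placed by the log2 difference of number 4 (left) and number 2 (right) from the other numbers, in rows for the 33 genes and 4 other lists, with a black bar at the list's median and a dashed red line at the median of all probe sets. The 33 genes and the other replication genes lie mostly left of 0 at number 4, with medians of -0.72 and -0.80, and the histone genes right of it, with a median of 0.73.

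Among 11 measured G1 regulators of 12 listed, 5 were called higher at number 4 (4 without both arrays of number 1) and 1 lower, as the plot of gene lists shows. These are 45.5% and 9.09%, against 26.3% and 25.5% of all probe sets. The CDK inhibitors CDKN2A (1.08 ± 0.13), CDKN1C (0.93 ± 0.13), CDKN2B (0.87 ± 0.22) and CDKN2D (0.80 ± 0.13) and the cyclin CCND1 (0.39 ± 0.13) were higher. CDKN2A and CCND1 had low mean levels (5.46 and 4.74), below the array medians of 6.38 to 6.46, and signal there may be background. The mean levels of CDKN1C, CDKN2B and CDKN2D lay above those medians, but background signal was not examined, so this does not show that they were expressed. CDKN2B read 8.13 in the untreated and 7.38 in the treated array of number 4. CDK6, the kinase partner of D cyclins in T cells, was lower by 1.89 ± 0.11 (adjusted p = 3.54e-05). CCND2, CCND3, CDK4, CDKN1A and CDKN1B were not called at number 4, with differences of -0.04, 0.21, -0.08, -0.12 and 0.23. At number 2, CDK4 (-0.89) and CDKN1C (-0.50) were lower and CDKN1B (0.44) and CDK6 (0.42) higher (11.6% and 15.4% of all probe sets). Without both arrays of number 4 the counts were 1 lower and 1 higher (7.86% and 7.2% of all probe sets). OICR-9429 gave no call in the histone, mitotic or G1 lists.

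The arrays carried a T-lineage profile, with 15 of 16 measured markers above the median level of all probe sets and PTCRA below it. At number 4, 12 of the 16 were called, 6 higher and 6 lower, against 26.3% and 25.5% of all probe sets. Those with the widest differences there were CD247 (1.20), CD5 (1.00) and LCK (0.98), of T-cell receptor signalling, and the cortical thymocyte markers CD1E (-2.33), CD1A (-1.66) and CD1B (-1.42). At number 3, 4 of the 16 were called higher and 0 lower (1.18% and 0.2% of all probe sets). Among these were CD1E (2.21), CD1A (2.03) and CD1B (1.83), and number 3 is part of the mean that number 4 was set against. Array medians ran from 6.38 to 6.46. The summed log2 level of 7 myeloid markers was 39.39 at number 4 and 35.86 to 37.44 at the other numbers, and that of 6 erythroid and megakaryocyte markers 38.49 against 34.79 to 36.43. Of the myeloid markers, CD68 (1.68), CD14 (0.49) and CSF1R (0.37) were called higher at number 4 and 0 lower, and MPO (-0.01) and LYZ (-0.01) were among the 4 not called. Of the erythroid and megakaryocyte markers, KLF1 (1.09) and HBA1 (0.89) were called higher and 0 lower, and HBB (-0.09) was not called. The sums of 6 B-cell markers (38.33 to 39.79 over the numbers) and of 9 fibroblast and epithelial markers (49.61 to 50.78) were also highest at number 4. Their calls there went both ways: CD79A (0.59), COL1A1 (0.63) and COL1A2 (0.39) were higher and MS4A1 (-0.37) and EPCAM (-0.75) lower. Only 2 of the 7 myeloid and 2 of the 6 erythroid and megakaryocyte markers lay above the median level of all probe sets. Of the B-cell markers 3 of 6 did, and of the fibroblast and epithelial markers 3 of 9. Number 4 had the highest mean in 43.5% of all probe sets. These marker genes were named after their values were seen. By group, the myeloid sum was 35.92 to 39.84 in untreated and 35.80 to 38.94 in treated arrays. The part of these markers in the replication gene results was not tested.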

How the data were processed

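Per the submitters' processing notes, RMA and Transcriptome Analysis Console were used, with versions not given in the sources used here, nor is the genome build of the probe sets. The deposited values are log2 levels per probe set, 21448 on each of 8 arrays, which the authors had normalized between arrays. Per the labels, the GeneChip WT PLUS kit was used for labelling. Scanner files were not used, so background signal and scan batch were not examined, and the number of arrays limits the precision. Symbols came from the platform annotation: 17709 probe sets had 1 gene symbol, 0 several and 3739 none. All 17709 matched a RefSeq table of GRCh38.p14 by Entrez ID, used for names. A gene with several probe sets was read by the one with the highest mean.

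Groups were compared with limma 3.58.1 (R 4.3.3; lmFit and eBayes, two-sided, Benjamini-Hochberg adjustment over all probe sets, threshold 0.05) on all 8 arrays. Replicate numbers were compared in a model with number and treatment, by an F test, by each number against the mean of the others and by 6 pairs of numbers. Deviations from the group means correlated between same-numbered arrays at 0.696, 0.748, 0.566 and 0.865, and with other numbers at 0.216 at most. The numbers, which come from the titles, therefore pair the samples. No arrays were identical.

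The genes, lists and tests were chosen with earlier results of these data known, and the promoter search, the orders within groups and the alternatives for the other lists were added after seeing the data. All 33 genes are named; of the other replication genes, the 3 with the smallest p over numbers in each direction at number 4 and the treatment extremes; of the G1 regulators, all measured; of other lists, up to 2 with the smallest p. The alternatives were the replicate block, trend and robust variances, median centring, cyclic loess, a filter at the median level, the mean of a gene's probe sets, no treatment term, and leaving out arrays or numbers. In simulations on 21448 probe sets with 200 changed, 5 runs recovered 10.15% of 2-fold treatment changes without the block and 66.27% with it. They recovered 54.33% of 2-fold changes at number 4. The number 4 simulation held no other difference between numbers, while 51.8% of all probe sets were called at number 4 in the data. The 54.33% therefore does not give the power of the number 4 test on these arrays.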

Additional observations from a re-analysis of the deposited data

Results flagged for a closer look

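Among the 66 sets of 4 arrays (33 genes in 2 groups), 11 held 1 array far from the other 3 by Dixon's test. Chance gives about 1 in 20, or 3.3 of 66, and 10 of the 11 were at number 4. The exception was MCM2, which read 8.97 in the untreated array of number 2 and 9.62 to 9.70 in the other untreated arrays. In untreated cells of number 4, MCM6 read 8.81 (others 9.87 to 10.03), RFC3 8.49 (10.20 to 10.48), POLE 7.14 (8.73 to 8.83), CCNE2 6.90 (9.13 to 9.52), CHAF1A 8.28 (9.13 to 9.30) and SLBP 8.99 (9.80 to 9.87). In treated cells of number 4, ORC6 read 6.51 (others 8.17 to 8.46), RFC3 8.46 (10.28 to 10.47), POLE 7.14 (8.57 to 8.84) and CCNE2 7.07 (9.18 to 9.51). RFC3, POLE and CCNE2 stood apart in both groups. Same-numbered arrays pair, so the 66 sets are not independent and the count of 11 cannot be weighed against 3.3. At number 4, 51.8% of all probe sets were called, and Dixon's test was run on the 33 genes only.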

How the results depend on the processing

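The treatment count was 0 of 33 in all 18 alternatives, the replicate block among them, and the block changed no call. Each member has 1 probe set, so the mean of a gene's probe sets could not change the members' values. The count at number 4 (24) and between pairs of numbers (91) stayed within 1.5 times. Over any number, leaving out arrays or a number gave 12 to 28. At number 1 (13 as reported), trend and robust variances gave 21 and the filter at the median level 22, and leaving out arrays or a number gave 0 to 20. At number 2 (14), leaving out arrays or a number gave 2 to 15. At number 3 (4), trend and robust variances gave 20, the filter 20, no treatment term 9 and cyclic loess 2, and leaving out arrays or a number gave 0 to 17. The number 2 difference of RFC3 ran from -0.21 to 0.78 and that of CCNE2 from -0.34 to 0.92 when arrays or a number were left out, and both turned below 0 only without both arrays of number 4. A change of sign was counted as a reversal only where the value passed the threshold in either fit. Of the treatment differences, none of which passed, 111 of 396 changed sign when arrays or a number were left out, and 7 of 198 under other settings. Apart from fits with fewer arrays or fewer probe sets, the cause of these changes was not tested. Fits with 1 array left at the number tested also called fewer of all probe sets. Trend and robust variances gave 3271 higher and 1775 lower of all probe sets at number 1, against 2264 and 1316 as reported. At number 3 they gave 1694 and 442, against 254 and 43. There, no treatment term gave 431 and 85, and cyclic loess 227 and 57. Of the 10721 probe sets kept by the filter, 3088 were higher and 1452 lower at number 1, against 2007 and 790 as reported. At number 3 these counts were 1321 and 407, against 161 and 35. With 4 arrays a group, few treatment changes of under 2-fold could be called without the block.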
